A study of Mus musculus with 4 samples.

Results

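The plasma cells of the mouse renal capsule, the fibrous sheath that encloses the kidney, were chosen as the barcodes with at least 5 UMIs of Jchain, at least 1 UMI of Mzb1 and at least 10% of all UMIs from the light chain constant genes Igkc, Iglc1, Iglc2 and Iglc3. A UMI (unique molecular identifier) stands for 1 captured transcript and a barcode for 1 droplet, usually 1 cell. They numbered 320 of the 37361 barcodes left after filtering (500 UMIs and 300 genes or more, with mitochondrial transcripts not above 20%). The members were thus chosen by measured Jchain, Mzb1 and light chain counts, which are given below as a description only. Of the 320, 4 came from young library 1, 1 from young library 2, 86 from aged library 1 and 229 from aged library 2. Capsules of young and of aged mice were digested with the collagenase blend Liberase and DNase, and 3′-end droplet libraries were made from the whole suspension without any sort. Each age had 2 libraries, and no mouse was treated. The sources used here do not state the age in weeks, the strain or how many mice a library holds, so p-values below measure only the spread between libraries, which may be technical.

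Plasma cells are the antibody-secreting end stage of the B cell lineage. The repressor Blimp-1 (gene Prdm1) and IRF4 shut down the B cell programme, and the unfolded protein response factor XBP1 enlarges the endoplasmic reticulum (ER) in which antibody is folded. Jchain joins secreted IgM and IgA into polymers, and Mzb1 is an ER cofactor of antibody assembly. In mice, B-1 cells of the body cavities are a known source of natural IgM, and many of them carry a receptor for phosphatidylcholine made of the V genes Ighv11-2 and Igkv14-126 or of Ighv12-3 and Igkv4-91.

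The aged capsule plasma cells were nearly all IgM and kappa, and many shared V gene pairs. A V gene was assigned to a cell when it held at least 3 UMIs and at least 70% of the cell's V gene UMIs of its chain. Ighv11-2 with Igkv14-126 was the pair of 37 of 86 plasma cells in aged library 1 and of 69 of 229 in aged library 2. Ighv1-82 with Igkv12-44 was the pair of 64 of 229 in aged library 2 and of 0 of 86 in aged library 1. The germline V exons of these 4 genes are shown because they carry this finding. Of the heavy chain exons only the last 300 bases are shown. They come from the GENCODE M21 transcripts on build GRCm38 and are written 5′ to 3′ on the coding strand. Capitals mark the last in-frame cysteine codon and what follows it, the germline-encoded start of the third complementarity-determining region.
Ighv11-2: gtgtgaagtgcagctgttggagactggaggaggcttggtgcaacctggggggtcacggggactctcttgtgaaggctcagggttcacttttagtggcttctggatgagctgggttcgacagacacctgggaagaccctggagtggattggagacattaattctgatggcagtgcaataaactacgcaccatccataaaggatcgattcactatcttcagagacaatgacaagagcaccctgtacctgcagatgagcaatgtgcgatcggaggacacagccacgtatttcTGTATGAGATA
Igkv14-126: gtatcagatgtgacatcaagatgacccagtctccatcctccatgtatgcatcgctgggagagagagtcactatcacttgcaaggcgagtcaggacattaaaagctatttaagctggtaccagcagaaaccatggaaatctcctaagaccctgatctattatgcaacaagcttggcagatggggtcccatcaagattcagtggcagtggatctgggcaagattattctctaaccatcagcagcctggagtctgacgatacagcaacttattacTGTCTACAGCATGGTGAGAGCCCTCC
Ighv1-82: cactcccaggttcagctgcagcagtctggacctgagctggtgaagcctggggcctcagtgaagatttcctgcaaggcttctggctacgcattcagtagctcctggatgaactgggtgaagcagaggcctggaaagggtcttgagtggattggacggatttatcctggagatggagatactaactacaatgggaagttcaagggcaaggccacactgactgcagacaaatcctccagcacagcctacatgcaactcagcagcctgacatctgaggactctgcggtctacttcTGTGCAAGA
Igkv12-44: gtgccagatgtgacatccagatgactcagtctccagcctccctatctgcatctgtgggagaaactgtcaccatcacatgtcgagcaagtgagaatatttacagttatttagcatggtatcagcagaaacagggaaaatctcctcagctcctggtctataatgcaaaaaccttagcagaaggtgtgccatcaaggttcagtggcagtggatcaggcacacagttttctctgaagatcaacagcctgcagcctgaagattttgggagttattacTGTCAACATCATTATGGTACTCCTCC
The stretches shown of the heavy chain exons lie on the minus strand, Ighv11-2 at chr12:114048241-114048540 and Ighv1-82 at chr12:115952538-115952837. The light chain exons lie at chr6:67896345-67896642 on the plus strand for Igkv14-126 and at chr6:69814631-69814928 on the minus strand for Igkv12-44. The annotation lists all 4 as immunoglobulin V genes. Each has a close germline copy, so the counts of the copies were compared. Ighv11-2 and its nearest copy Ighv11-1 are 98.7% identical, and plasma cells held 4237 UMIs of Ighv11-2 against 0 of Ighv11-1 in aged library 1 and 5200 against 3 in aged library 2. In aged library 2, Igkv12-44 had 13051 UMIs against 3 for Igkv12-41, which is 95.6% identical, and Ighv1-82 had 1449 against 28 for Ighv1-80, which is 96.1% identical. Igkv14-126 had 4979 UMIs against 1 for Igkv14-111 in aged library 1 and 6716 against 2 in aged library 2, at 90.9% identity. Reads were thus assigned almost entirely to the named gene of each such couple.

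Plasma cells took a larger share of the barcodes in each aged library than in either young library. Their share was 0.0445% in young library 1 (exact 95% binomial interval 0.0121 to 0.114) and 0.0104% in young library 2 (0.000263 to 0.0578). It was 1.27% in aged library 1 (1.02 to 1.57) and 1.91% in aged library 2 (1.67 to 2.17). The intervals cover counting error only. The mean share was 0.0274 ± 0.0241% (SD, n = 2) in young and 1.59 ± 0.453% (SD, n = 2) in aged libraries, a ratio of 58.0. The exact two-sided permutation test gave p = 0.333, the smallest that 2 against 2 libraries allow. Scored with Scrublet, which compares barcodes with simulated doublets, all 5 young plasma cells were among the barcodes with the highest scores, as were 9 of 86 and 46 of 229 aged ones. Without those barcodes the young libraries held 0 plasma cells of 17236 barcodes, which allows a share of up to 0.0174% when 3 barcodes are taken as the limit of a count of 0, and the aged libraries held 260 of 17223.

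**Figure D1:**
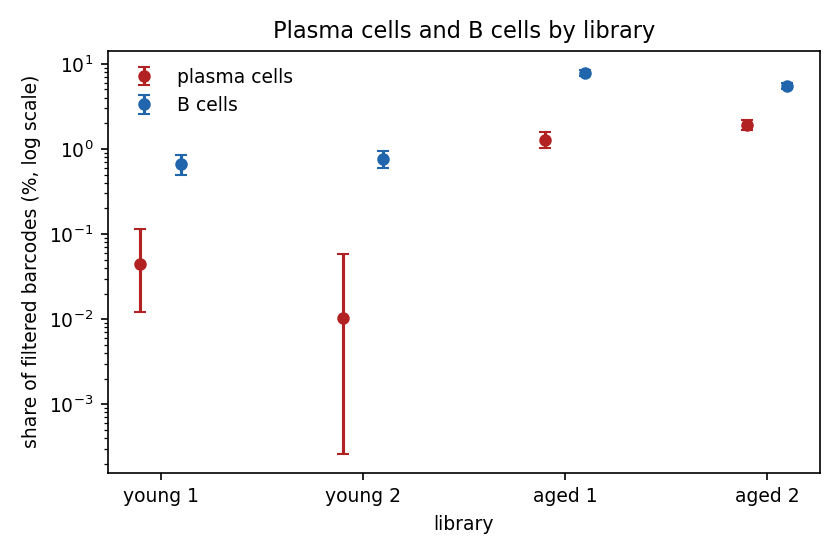
Share of filtered barcodes (%, log scale) that were plasma cells (red) or B cells (blue) in each of the 4 libraries; points are shares and bars exact 95% binomial intervals. Plasma cells sit at 0.0445% and 0.0104% in the young and at 1.27% and 1.91% in the aged libraries, below the B cells in every library.

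B cells, the precursors, were gated by at least 1 UMI each of Cd79a and Ms4a1, a light chain share under 10% and low T cell, macrophage and fibroblast marker counts. There were 59 and 73 of them in the young libraries and 528 and 661 in the aged libraries, or 0.656%, 0.757%, 7.81% and 5.52% of the barcodes. The groups did not overlap, with an exact permutation p of 0.333. Plasma cells per B cell came to 0.0678 and 0.0137 in the young and to 0.163 and 0.346 in the aged libraries, which did not overlap either. Over barcodes with a UMI of Ptprc, the pan-leukocyte gene CD45, plasma cells were 1 of 3050, 0 of 3068, 46 of 4238 and 110 of 6518 in the same order of libraries. Many plasma cells of every library lacked a Ptprc UMI.

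The cells were large in RNA, and most of that RNA was antibody. Their median total was 22672 UMIs in aged library 1 (range 4078 to 67366) and 17433 in aged library 2 (612 to 48720), against 3699 and 2285 in the B cells. Immunoglobulin genes took a median of 61.5% (23.5 to 81.4) and 63.1% (16.5 to 83.2) of a plasma cell's UMIs, and 1.91% and 2.11% of a B cell's. Since the light chain share chose both classes, these shares are a description. Leaving immunoglobulin out, a plasma cell still held a median of 8761.5 and 5835 UMIs, against 3620.5 and 2236 in B cells, and 2339 and 1909 genes against 1407 and 1005. Their mitochondrial share of all UMIs had a median of 0.683% and 0.597%, while the other barcodes of the same libraries had 2.17% and 2.22%. Immunoglobulin UMIs count in that total and lower the share in plasma cells, so the gap is no measure of mitochondrial RNA per cell. Though 1.27% and 1.91% of the barcodes, they contributed 4.01% and 6.39% of all UMIs of their library.

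At the limits of the rule few barcodes were at stake. Jchain had a median of 767 UMIs per cell in aged library 1 and 454 in aged library 2, with lowest values of 20 and 7. In aged library 2, 2 barcodes met the other conditions with less Jchain than the rule asks, and 9 and 4 barcodes of aged libraries 1 and 2 fell short only on the light chain share, at up to 9.59% and 6.79%. The lowest light chain share among members was 15.1% and 12.6%. Members held 99.4% and 99.0% of all Jchain UMIs of the 2 aged libraries. No barcode was a member in more than 1 library, although 18 to 37 filtered barcodes were shared by each couple of libraries.

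Heavy chain class was read from the constant genes, at least 5 UMIs with at least 70% from 1 class. IgM, the first class made and the main natural antibody, was the class of 79 of 86 plasma cells in aged library 1 (91.9%, exact interval 83.9 to 96.7) and of 218 of 229 in aged library 2 (95.2%, 91.6 to 97.6). IgA, the class of mucosal secretions, was held by 6 and 8 cells. IgG was held by 1 cell with Ighg2b in aged library 1 and by 2 cells with Ighg2c in aged library 2, and 1 further cell of aged library 2 had no clear class. Both Ighg2c cells carried Ighv14-2 with Igkv6-32. The young cells were 4 IgM in library 1 and 1 IgA in library 2. Kappa was the light chain of 85 of 86 and 228 of 229 aged cells.

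The V genes were concentrated on few pairs. A heavy V gene could be assigned in 71 of 86 and 213 of 229 aged plasma cells, a light V gene in 64 and 194, and both in 52 and 183. Those pairs were of 14 and 35 kinds. Of these, 11 and 23 kinds occurred in 1 cell only, while the 3 and 12 repeated kinds held 41 and 160 cells. The library does not sequence the junctions of the receptor, so cells of a pair cannot be assigned to clones.

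Ighv11-2 with Igkv14-126 made up 43.0% of the plasma cells of aged library 1 (exact interval 32.4 to 54.2) and 30.1% of those of aged library 2 (24.3 to 36.5). Ighv11-2 itself was assigned in 45 and 89 aged cells, and in none of them was another light V gene assigned: 37 and 69 had Igkv14-126 and 8 and 20 had no clear light V gene. It was also the heavy V gene of 2 of the 4 plasma cells of young library 1, 1 of them with Igkv14-126. All 37 and 69 aged cells with the pair were IgM. The lambda locus leaves a few V UMIs in most cells, present in 82 of 86 and 209 of 229, so the light V gene was also assigned among kappa genes alone. The pair then held 43 (50.0%) and 83 (36.2%) aged cells. When 90% of a chain's V UMIs had to come from 1 gene, it held 18 (20.9%) and 30 (13.1%) aged cells, and in aged library 2 the 58 cells of Ighv1-82 with Igkv12-44 then outnumbered it. At 90% among kappa genes alone it held 42 (48.8%) and 80 (34.9%), against 61 cells of Ighv1-82 with Igkv12-44 in aged library 2. These further rules were chosen after seeing the data, and the order of the 2 pairs in aged library 2 thus depended on the rule. The other known phosphatidylcholine pair, Ighv12-3 with Igkv4-91, was found in 2 cells of aged library 1 and 1 of aged library 2.

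Ighv1-82 with Igkv12-44 separated the 2 aged libraries. It was the pair of 27.9% of the plasma cells of aged library 2 (22.2 to 34.2) and of 0 of 86 in aged library 1, where the exact interval reaches up to 4.20%. In aged library 1, 1 plasma cell held 25 UMIs of Ighv1-82 and 1 held at least 3 UMIs of Igkv12-44, but neither gene was assigned there. All 64 cells of the pair were IgM. Whether the libraries hold the same or different mice is not stated, so the difference between mice and that between libraries cannot be told apart. Other pairs of aged library 2 were smaller, with 6 cells of Ighv1-76 and Igkv17-127, 4 of Ighv1-26 and Igkv8-24 and 3 of Ighv1-42 and Igkv3-2. Only 4 kinds of pair were found in both aged libraries: the 2 phosphatidylcholine pairs, Ighv1-26 with Igkv3-2 in 1 and 2 cells, and Ighv9-3 with Igkv3-5 in 1 cell each.

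**Figure D2:**
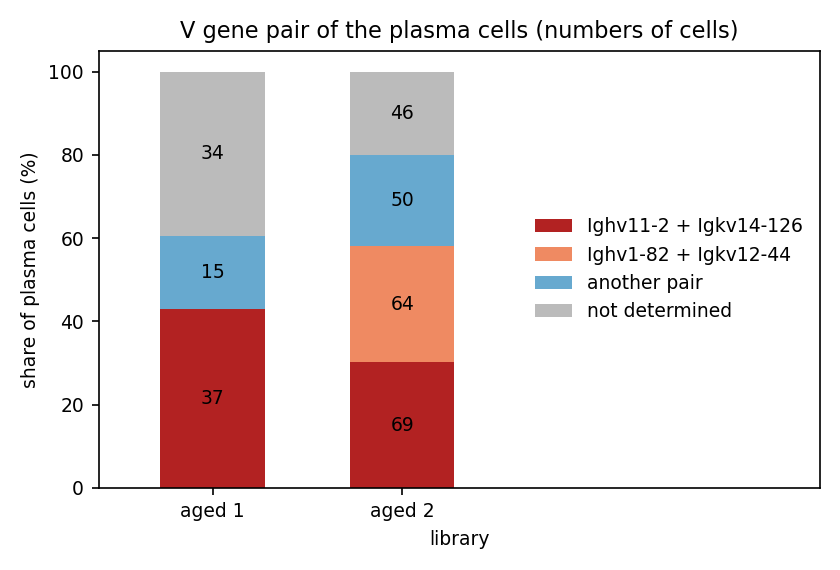
Share of plasma cells (%) by assigned V gene pair in the 2 aged libraries, with numbers of cells inside the bars. Ighv11-2 with Igkv14-126 holds 37 and 69 cells, and Ighv1-82 with Igkv12-44 holds 64 cells in aged library 2 and none in aged library 1.

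The V genes of B cells could rarely be read at their depth. A heavy V gene could be assigned in only 10 of 528 and 3 of 661 of them and a light V gene in 18 and 14, and 0 held either pair. The light V gene was Igkv14-126 in 5 of those 18 B cells of aged library 1, and Igkv12-44 in 10 of those 14 of aged library 2. At least 3 UMIs of Igkv12-44 were held by 10 of 661 B cells, 1 of 2341 gated macrophages and 1 of 2182 gated fibroblasts of aged library 2. Transcripts of the pairs were also found in other cells at a low level, and the cause was not tested. At least 1 Igkv12-44 UMI was found in 10.3% of the B cells, 1.37% of the gated macrophages and 1.56% of the gated fibroblasts of aged library 2, whose median depths were 2285, 6743 and 5409 UMIs. In aged library 1, where 1 plasma cell was rich in Igkv12-44, the B cell share was 2.84%, and single UMIs in B cells are not read as expression here.

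Some plasma cell barcodes also held transcripts of other cells, which matters for every gene comparison below. At least 10 UMIs from a list of macrophage, fibroblast, T and NK, dendritic, neutrophil and mast, endothelial, tubule or erythrocyte genes were found in 14 of 86 (16.3%) and 68 of 229 (29.7%) aged plasma cells. Of those, 8 and 43 were among the barcodes with high doublet scores. All 10 macrophage genes were detected, with a median of 2 UMIs per plasma cell in each aged library and highest sums of 726 and 383. The fibroblast list had all 10 genes detected too, a median of 1 UMI and highest sums of 535 and 478. For each list taken alone, the median aged plasma cell thus held 2 or fewer UMIs, and a minority of cells held many. In young library 1, 2 of 4 cells held 22 and 19 UMIs of tubule genes.

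Plasma cells differed from B cells across much of the transcriptome. UMIs were summed per library and class without immunoglobulin genes, Jchain and Mzb1, and tested with edgeR, with p-values adjusted by Benjamini-Hochberg over all genes tested. Levels are the sums scaled to a common total with TMM factors (CPM). Of 9095 genes, 34.4% passed an adjusted p of 0.05, 20% higher and 14.4% lower in plasma cells, with a median log2 difference of 0.00. The B cell gate itself kept macrophage, fibroblast and T cell markers low, and its genes Cd79a and Ms4a1 were not tested.

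The regulators that define plasma cells were high, also Xbp1, the marker that the rule did not use. Xbp1 stood at 2078 and 1871 CPM in the plasma cells of aged libraries 1 and 2 and at 80.7 and 63.2 in the B cells (log2 difference 4.77, SE 0.20, edgeR adjusted p = 4.5e-08). Prdm1 stood at 151 and 102.5 against 20.9 and 6.84 (3.09, edgeR adjusted p = 9.4e-05). Irf4 stood at 184 and 148 against 73.7 and 54.1 (1.36, edgeR adjusted p = 0.0012). In each gene both plasma cell sums lay above both B cell sums. Of the 10 regulators tested 9 were higher and 0 lower, with a median of 2.87. The exception was Zbtb20, a repressor linked to long-lived plasma cells, at 415 and 346 against 309 and 408.5 CPM. The call for Irf4 was lost without aged library 2 (edgeR adjusted p = 0.088). The cells thus matched their label on markers other than those of the rule. The 5 young cells together held 40 UMIs of Xbp1, 8 of Prdm1 and 7 of Sdc1.

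Surface proteins of plasma cells were high as well, 12 of 13 with a median of 3.09. Sdc1, the proteoglycan CD138 by which plasma cells are sorted, was at 381.5 and 290.8 CPM against 2.62 and 4.56 in B cells (log2 difference 6.54). Slamf7, a self-ligand receptor, was at 385.5 and 410 against 35.3 and 29.6 (3.60). Ly6c2, a GPI-anchored surface antigen, was at 926 and 409 against 6.98 and 12 (6.15). The library sums of each of these genes did not overlap between the classes. Slc3a2, the heavy chain of the CD98 amino acid transporter, was at 2472 and 1786 against 82 and 74.1 (4.76). Cd38, an ectoenzyme, was the 1 member lower in plasma cells, at 29.1 and 28.4 against 117 and 162 (-2.27). Ly6k rose from 17.9 and 14.8 in B cells to 37.1 and 228 (3.09), and without aged library 2 its edgeR adjusted p was 0.303.

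The machinery of the secretory pathway was higher at each step. Of the genes for the unfolded protein response and ER folding, 35 of 36 were higher and 0 lower (median 2.62). Hspa5, the chaperone BiP, was at 1609 and 1407 CPM against 407 and 325 (2.04). Hsp90b1, the chaperone GRP94, was at 5358 and 3881 against 487 and 427 (3.34). Both chaperones were several-fold higher in each library. Derl3, of the channel that returns misfolded proteins to the cytosol, was at 448 and 429 against 4.8 and 3.99 (6.59). Creld2, an ER stress-induced secretory pathway protein, was at 1118 and 812 against 40.6 and 38.2 (4.61). Txndc5, a disulfide isomerase, was at 3011 and 2759 against 142 and 191 (4.12). Fkbp11, a peptidyl-prolyl isomerase, was at 470 and 406 against 10.5 and 7.41 (5.57). These 4 ER genes were low in B cells and did not overlap. Ero1lb, an ER oxidase, was the gene that did not pass (0.51, edgeR adjusted p = 0.122), although it did when members with 10 or more UMIs of another cell list were left out (0.88, edgeR adjusted p = 0.0024).

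Translocation into the ER followed, with 24 of 24 genes higher (median 1.89). Ssr4, a subunit of the translocon-associated complex, was at 3687 and 2993 CPM against 252 and 255 (3.72). Sec61b, a subunit of the channel itself, was at 2371 and 1962 against 403 and 409 (2.42). Neither gene overlapped between classes. For N-glycosylation 17 of 18 genes were higher (median 1.73), among them Krtcap2, a subunit of the oligosaccharyltransferase, at 1791 and 1605 against 309 and 327 (2.42). For transport from the ER to the Golgi 28 of 29 were higher (median 1.36). Trappc1, a tethering factor, was lower at 30.5 and 40.0 against 57.2 and 54.1 (-0.62, edgeR adjusted p = 0.043), a call lost in 8 of the 13 alternatives. Amino acid supply genes were higher in 13 of 16 (median 1.81). Asns, asparagine synthetase, had 132.5 and 113 CPM in plasma cells and no UMI in the B cells, so it was at least 165-fold higher, taking 3 UMIs over both B cell libraries as the floor. Chac1, a glutathione-degrading stress gene, was at least 101-fold higher by the same floor, with 109 and 40.6 CPM, but did not pass in DESeq2 (adjusted p = 0.171). Medians of these lists were the same with such genes set at their bound.

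**Figure D3:**
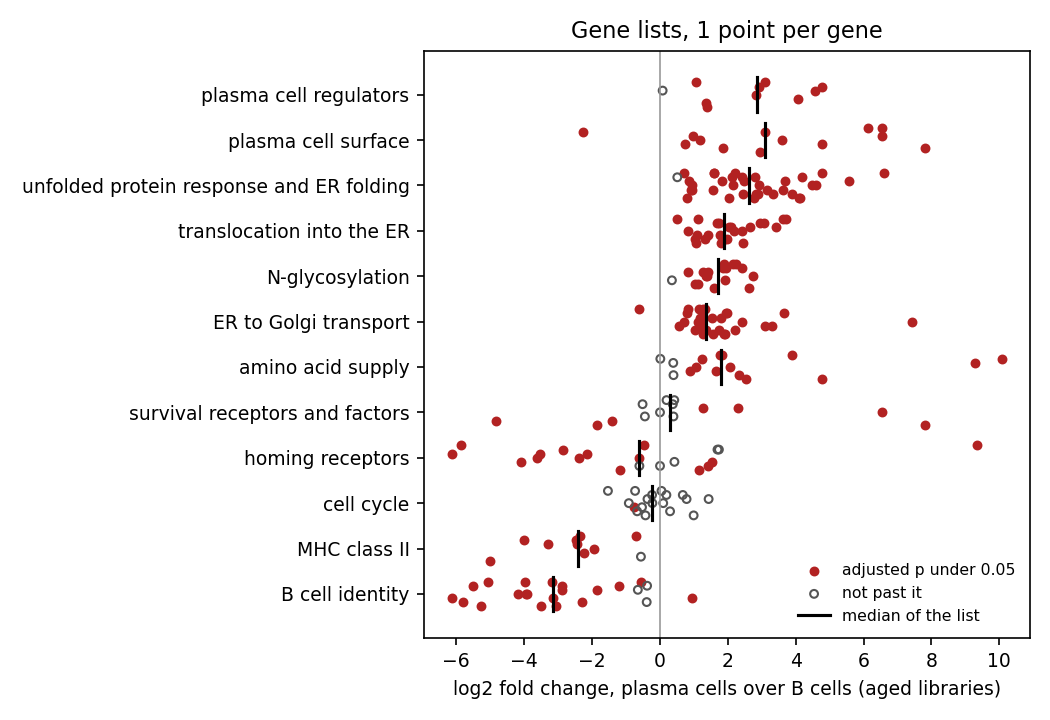
Log2 fold change of plasma cells over B cells in the aged libraries (x axis) for each tested gene of 12 gene lists (rows); filled points passed an adjusted p of 0.05, open ones did not, and bars are list medians. The ER and secretory lists lie to the right, with medians from 1.36 to 2.62, and B cell identity and MHC class II to the left at -3.16 and -2.40; points of genes absent from B cells are fitted values and no bounds.

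The ER lists had like counts in the plasma cells that held under 10 UMIs of each list of other cells, an alternative chosen after seeing the data: 36 of 36 folding genes, 24 of 24 translocation genes, 17 of 18 glycosylation genes and 28 of 29 transport genes were higher. Left out of the test in turn, aged library 1 or 2 lowered the number of folding genes called to 31 or 29, both of 36, and that of transport genes to 21 of 29 or 14 of 28.

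The promoters of the ER genes were searched for the ER stress response element, the site through which ATF6 and XBP1 act, the letters CCAAT and CCACG with any 9 bases between them, matched on either strand in the 250 bases before the RefSeq start (GRCm38.p6). It was found in 9 of the 31 tested ER folding genes with a promoter in the table (29.0%), against 35 of 27025 genes (0.130%). The 9 were Calr, Canx, Creld2, Derl3, Dnajc3, Hsp90b1, Hspa5, Pdia6 and Syvn1, and Hsp90b1 had 2 matches. The list is made of known ER stress genes, so the match describes these promoters and does not test a factor. The related element, ATTGG and CCACG with any 1 base between them, was in 1 of 31 (Herpud1) and in 10 of 27025 genes (0.0370%). The core CCACG, which the longer elements contain, was in 24 of 31 (77.4%) and in 8368 of 27025 (31.0%). Creld2 and Derl3 are shown because both were among the ER genes with much higher levels in plasma cells. Capitals mark the element, here as its reverse complement.
Creld2: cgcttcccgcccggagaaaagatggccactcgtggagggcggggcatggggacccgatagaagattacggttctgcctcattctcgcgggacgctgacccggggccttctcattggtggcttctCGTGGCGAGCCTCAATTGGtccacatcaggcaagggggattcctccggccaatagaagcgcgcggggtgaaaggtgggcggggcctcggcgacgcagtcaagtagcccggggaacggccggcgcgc
Derl3: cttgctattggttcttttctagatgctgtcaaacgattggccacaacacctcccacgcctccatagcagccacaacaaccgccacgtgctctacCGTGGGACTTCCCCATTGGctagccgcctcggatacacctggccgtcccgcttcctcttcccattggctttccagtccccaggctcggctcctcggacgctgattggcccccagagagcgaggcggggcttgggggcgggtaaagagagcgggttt
They lie at chr15:88819396-88819645 and chr10:75893148-75893397, both on the plus strand.

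The B cell programme was low. Of 23 B cell identity genes tested, 19 were lower and 1 higher in plasma cells (median -3.16). Pax5, the factor that sets B cell identity, was at 5.30 and 2.58 CPM in plasma cells against 198.5 and 208 in B cells (-5.81). Cd22, an inhibitory receptor, was at 2.65 and 3.22 against 196 and 246 (-6.14). Fcer2a, the low-affinity IgE receptor CD23, was at 5.30 and 4.51 against 193 and 186 (-5.28). For all 3 genes both plasma cell sums lay far below both B cell sums. Ly6d was the 1 gene higher, at 5842 and 3909 against 2535 and 2534 (0.94, edgeR adjusted p = 0.0030), and lost the call without aged library 1 (edgeR adjusted p = 0.062). Ly6d marks early B lineage cells.

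Antigen presentation by MHC class II was lower in 9 of 10 genes and higher in 0 (median -2.40). H2-Aa, a class II alpha chain, was at 358 and 1333 CPM against 4251 and 5006 (-2.44, edgeR adjusted p = 0.00079). H2-DMb2, of the peptide exchange factor, was at 14.6 and 20 against 541 and 623 (-5.01). Cd74, the invariant chain, was at 9926 and 9797 against 14751 and 17206 (-0.70), a small difference at a high level. In the plasma cells with few UMIs of other cell lists 10 of 10 were lower, with a median of -3.22.

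Receptors for survival signals were mixed, with 4 of 14 higher and 3 lower (median 0.29). Tnfrsf17, the receptor BCMA for the ligands APRIL and BAFF, was at 433 and 291 CPM against 0 and 3.42 in B cells (log2 difference 7.80, SE 0.51). Cd28, better known as a T cell co-stimulatory receptor and used by plasma cells too, was at 155 and 104 against 0.436 and 2.28 (6.56). Both were nearly absent from B cells. Il6st, the signalling chain gp130 of the interleukin-6 receptor, was at 90.1 and 79.9 against 20.5 and 12.5 (2.32). Tnfrsf13c, the BAFF receptor of mature B cells, was lower at 80.8 and 98.6 against 200 and 286 (-1.42), and Fcrl5, an Fc receptor-like protein, at 2.65 and 1.29 against 65.0 and 39.9 (-4.84). Tnfrsf13b, the receptor TACI, did not pass at 335 and 294 against 222 and 254 (0.40, edgeR adjusted p = 0.076); without the high doublet scores it did (0.69, edgeR adjusted p = 0.0011). Mcl1, the survival factor of plasma cells, was at 828 and 658 against 839 and 638 (0.00), with overlapping values. Bcl2l11, the pro-apoptotic BIM, was higher (1.26, edgeR adjusted p = 0.032), a call lost in 5 of 13 alternatives, with adjusted p from 0.065 to 0.155, among them DESeq2 (0.151) and leaving out aged library 1 (0.155), young library 1 (0.081) or young library 2 (0.065).

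Homing receptors were lower in 11 of 20 genes and higher in 4 (median -0.60). Those that bring B cells into lymphoid follicles and keep them in circulation were low. Ccr7 was at 5.30 and 19.3 CPM against 133 and 223 (-3.63), and S1pr1, the receptor for exit into lymph, at 19.9 and 14.2 against 203 and 172 (-3.52). Cxcr5, the follicular receptor, had 3 UMIs over both plasma cell sums against a mean of 82 CPM in B cells, a ratio of 63.0 with a counting interval from 21.6 to 306. Klf2, a factor that maintains S1pr1, was at 232 and 186 against 1464 and 1536 (-2.85). Cxcr4, the CXCL12 receptor that holds plasma cells in bone marrow, was at 71.5 and 40.0 against 140 and 98.0 (-1.16, edgeR adjusted p = 0.0081). Its call was lost in DESeq2 (adjusted p = 0.053) and without aged library 2 (edgeR adjusted p = 0.175).

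Among the 4 higher homing genes was Ccr10, the receptor for the epithelial chemokines CCL27 and CCL28, with 84.8 and 63.8 CPM and no UMI in the B cells, at least 100.2-fold higher. The other 3 belong to leukocyte adhesion. Selplg, the ligand of selectins, was at 140 and 155 against 55.9 and 54.7 (1.42). Itgal was at 147 and 98.0 against 41.0 and 41.0 (1.55) and Itgb2 at 114 and 98.6 against 41.9 and 54.1 (1.14); together they form the integrin LFA-1. In the plasma cells with few UMIs of other cell lists Itgb2 did not pass (0.42, edgeR adjusted p = 0.172). Ccr2, the monocyte chemokine receptor, was at 1.32 CPM in aged library 1 and at 90.9 in aged library 2, against 10.9 and 22.8 in B cells, and did not pass (edgeR adjusted p = 0.100).

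**Figure D4:**
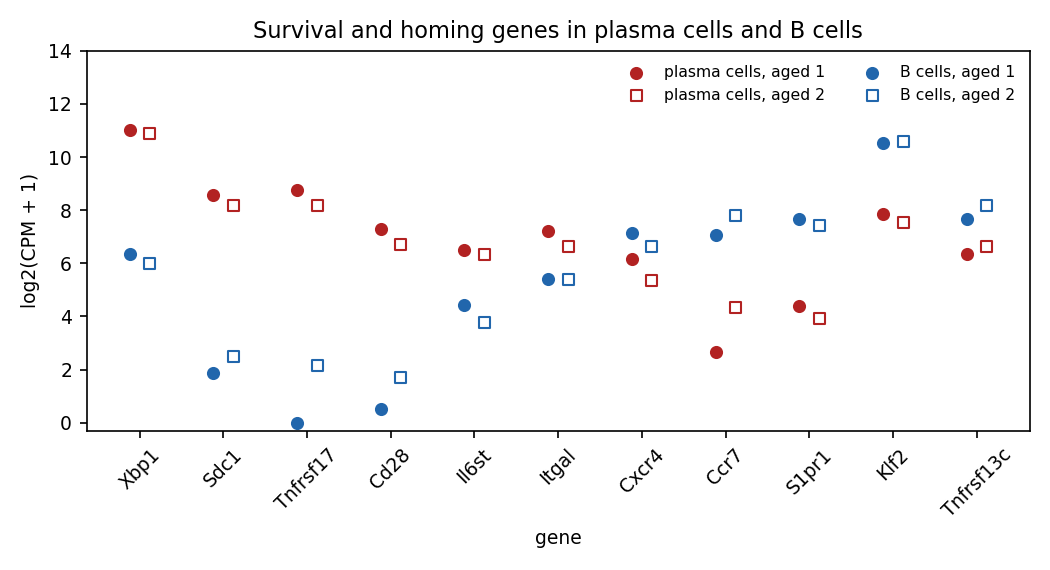
Level, as log2 of CPM plus 1, of 11 genes in the sums of plasma cells (red) and B cells (blue) of aged library 1 (filled circles) and aged library 2 (open squares). Xbp1, Sdc1, Tnfrsf17, Cd28, Il6st and Itgal lie higher in plasma cells and Cxcr4, Ccr7, S1pr1, Klf2 and Tnfrsf13c lower, with no overlap between classes in either library.

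Cytokine genes were few. Il10, the regulatory cytokine, was at 132.5 and 60.6 CPM in plasma cells against 28.4 and 7.98 in B cells (2.27, edgeR adjusted p = 0.0034). Lag3, an inhibitory receptor that marks a class of natural regulatory plasma cells, was at 37.1 and 47.7 against 6.98 and 0.570 (3.36), a call lost without aged library 2 (edgeR adjusted p = 0.187). Cxcl10, an interferon-induced chemokine of the ligand list, was at 147 and 58.7 against 3.49 and 1.71 (5.11). Of the 10 genes of the cytokine list tested 3 were higher and 2 lower.

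Cell cycle genes did not set the classes apart, with 0 of 18 higher and 1 lower (median -0.23). The 1 gene was Pcna, of the replication fork, at 18.5 and 23.2 CPM against 34.9 and 37.6 (-0.75, edgeR adjusted p = 0.037), a call lost in 4 of 13 alternatives: RLE scaling (0.053), DESeq2 (0.315), without aged library 1 (0.421) and without aged library 2 (0.290). The libraries went apart on this list: without aged library 1, 7 of 17 were higher, and without aged library 2, 3 of 13 were lower. In the plasma cells with few UMIs of other cell lists 6 of 9 were lower and 0 higher (median -1.12). Marker lists of other cells were also higher in the plasma cell sums, with 5 of 6 macrophage genes and 7 of 7 fibroblast genes, and in the plasma cells with few such UMIs 1 of 6 and 0 of 4. Lyz2, a macrophage lysozyme, was at 1012 and 1099 against 110 and 141 in all plasma cells (3.08) and turned to -0.24 in the latter. In those same cells Il10 was higher by 2.65 (edgeR adjusted p = 2.6e-05), Lag3 by 3.85 (edgeR adjusted p = 6.5e-06) and Cxcl10 by 5.57 (edgeR adjusted p = 8.0e-08) on the log2 scale, as large as or larger than in all plasma cells.

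Several genes named by the size of their difference were in none of the lists. Prg2, a granule protein best known from eosinophils, was at 1221 and 1682 CPM against 2 UMIs over both B cell sums, a ratio of 2938 with a counting interval from 813 to 24257. Prg2 was also present in the 5 young plasma cells, with 34 UMIs. Slpi, a secreted inhibitor of leukocyte proteases, was at 2355 and 2550 against 4.36 and 10.8 (8.38). Cox6a2, a muscle-type subunit of cytochrome oxidase, was at 236 and 113 CPM and had no UMI in the B cells, at least 236-fold higher, though not past the threshold in DESeq2 (adjusted p = 0.105). Zbtb32, a repressor of memory B cells that is itself in the lists, went the other way. It had 2 UMIs in plasma cells against a mean of 54.7 CPM in B cells. That was a ratio of 63.0 with a counting interval from 17.5 to 521. A list of B-1 cell genes, chosen after the V genes were seen, had 3 of 11 higher and 3 lower (median 0.04).

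Among IgM plasma cells, those with Ighv11-2 and Igkv14-126 were compared with those of another assigned pair, 37 with 13 cells in aged library 1 and 69 with 109 in aged library 2, where 64 of the 109 carried Ighv1-82 and Igkv12-44. The comparison was added after the V genes were seen. Of 5161 genes 0 passed in edgeR (0%), with 205 at an unadjusted p under 0.05, and 4 passed in DESeq2. With the library as a replicate block edgeR called 2. Levels of some genes are given as a description, since 2 sums can lie apart from 2 others without a real difference. Il5ra, the interleukin-5 receptor chain used by B-1 cells, was at 100.0 and 98.3 CPM in cells of the pair and at 10.7 and 14.4 in the others (log2 difference 2.81, edgeR adjusted p = 0.606). Ly6c2 was at 1412 and 803 against 247 and 69.1 (3.09, edgeR adjusted p = 0.661), and passed in DESeq2 (adjusted p = 0.00025) and with the block (adjusted p = 0.022). Slc3a2 was at 3409 and 3314 against 1426 and 1011 (1.48, edgeR adjusted p = 0.606), and passed in DESeq2 (adjusted p = 0.0015). Ccr10 was at 84.8 and 107 against 32.2 and 18.7 (2.18), and Prdm1 at 158 and 140 against 85.8 and 76.3 (0.91); neither passed. Without the filter on low counts 95 genes passed, among them Ly6c2, Slc3a2, Il5ra (edgeR adjusted p = 2.6e-05), Ccr10 (0.0024), Prg2 (0.0026) and Slpi (1.4e-24), but not Prdm1. Slpi passed there although its 2 sums of the pair were as far apart as 1358 and 52.6 CPM. Calls of that setting are therefore not read as differences here. For Il5ra, Ly6c2, Slc3a2, Ccr10 and Prdm1 the cells of the pair were above the others in both libraries. These are chosen genes that did not pass in the main fit, so this describes them and no profile of the pair. Slpi ran the other way, at 1358 and 52.6 CPM against 3067 and 4445 (-2.43, edgeR adjusted p = 1.00), with a wide gap between the libraries. Cells of the pair had a median immunoglobulin share of 63.3% and 64.1%, and the Ighv1-82 cells 67.3%.

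Ligands for the receptors of plasma cells were sought in all the other barcodes, summed per library. In such a sum fewer cells of a type and less RNA per cell cannot be told apart. Of 19552 genes, 43.8% passed between aged and young libraries, 21.9% higher and 22% lower in aged. Of 25 ligands tested 11 were higher and 4 lower in aged libraries (median 0.48, that of all genes -0.00). Cxcl12, the ligand of Cxcr4, was at 105 and 89.8 CPM in the young and at 202 and 185 in the aged sums (log2 difference 0.99, edgeR adjusted p = 0.00073). Vcam1, the adhesion ligand of the integrin VLA-4, was at 37.0 and 32.9 against 71.1 and 66.6 (0.98, edgeR adjusted p = 0.00040). Icam1, the ligand of LFA-1, was at 25.8 and 25.2 against 42.3 and 40.7 (0.70). None of these overlapped between ages. The chains of VLA-4 were not higher than in B cells in the plasma cells with few UMIs of other cell lists. There the log2 difference was -1.31 for Itgb1 (edgeR adjusted p = 6.8e-05) and -0.47 for Itga4 (edgeR adjusted p = 0.0504). Fn1, fibronectin, was lower in aged libraries, at 1226 and 1198 against 612 and 526 (-1.09, edgeR adjusted p = 0.00050).

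In these whole sums neither ligand of BCMA passed, nor did Il6 or Cxcl13 in the main fit. Tnfsf13b, the cytokine BAFF, was at 16.5 and 14.6 CPM in the young and 17.2 and 17.8 in the aged sums (0.17, edgeR adjusted p = 0.160). Tnfsf13, the cytokine APRIL, was at 0.564 and 0.571 against 0.857 and 0.665 (0.41, edgeR adjusted p = 0.216). Il6 was at 9.26 and 10.0 against 9.11 and 4.94 (-0.46, edgeR adjusted p = 0.210), and passed without aged library 1 (-0.96, edgeR adjusted p = 8.2e-05). Cxcl13, the B cell chemokine, was at 104 and 85.4 against 167 and 108 (0.54, edgeR adjusted p = 0.078), and passed with the replicate block (adjusted p = 0.017). In the same sums 10 of 10 T and NK cell genes were higher and 10 of 10 fibroblast genes lower in aged libraries.

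Within gates the ligands were split by cell type, given as untested levels without immunoglobulin UMIs. Fibroblasts were gated by at least 10 UMIs of Col1a1, Col1a2 and Dcn together, and macrophages by at least 5 of C1qa, C1qb and C1qc. Fibroblast Cxcl12 was 141 and 130 CPM in the young and 637 and 625 in the aged libraries, and that of macrophages 48.5 and 39.8 against 42.8 and 34.5. Fibroblast Vcam1 was 55.6 and 49.9 against 141 and 130, and macrophage Vcam1 27.2 and 16.5 against 69.5 and 68.6. The aged values were above the young in fibroblasts for both genes and in macrophages for Vcam1 alone. Tnfsf13b was 25.9 and 21.9 against 45.5 and 45.4 in fibroblasts, and 9.88 and 8.46 against 9.75 and 11.1 in macrophages. Macrophage Cxcl13 was 66.2 and 8.08 against 267 and 226. Ccl28, a ligand of Ccr10, was scarce, at 0.146 and 0.103 against 0.200 and 0.163 in fibroblasts. In macrophages Ccl28 was 0.116 and 0.0539 against 0.0663 and 0.243. Fibroblast Fn1 was 1926 and 1992 against 1726 and 1588, so its fall in the whole sum came with a smaller difference per fibroblast and with fewer gated fibroblasts, 3773 and 4067 in the young and 1226 and 2182 in the aged libraries.

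**Figure D5:**
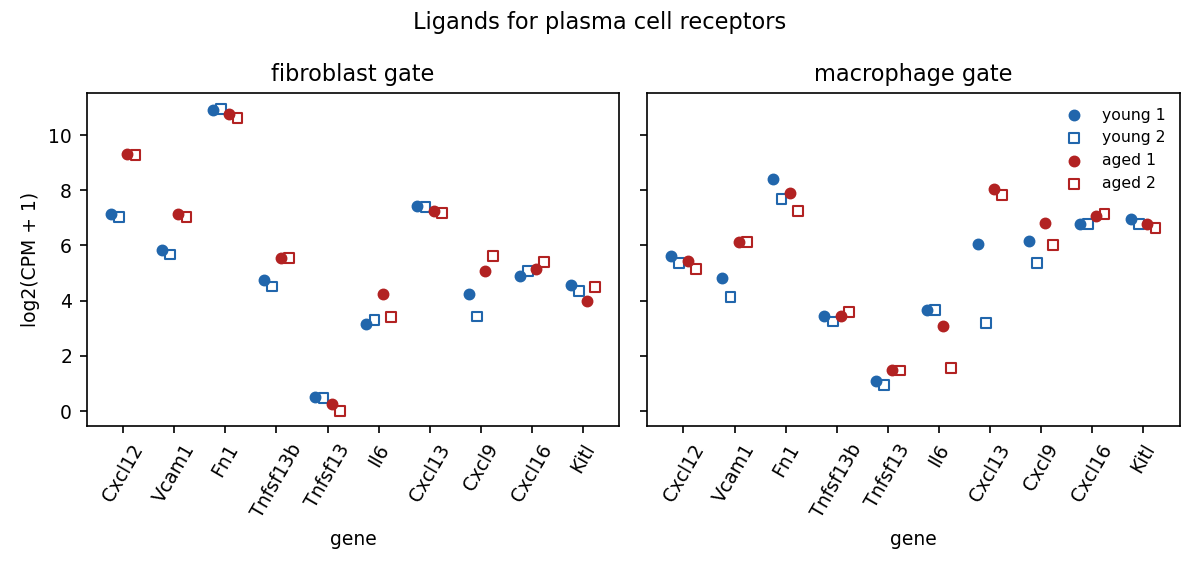
Level, as log2 of CPM plus 1, of 10 ligands in gated fibroblasts (left) and macrophages (right) of the young (blue) and aged (red) libraries, replicate 1 as filled circles and 2 as open squares. Aged fibroblasts lie above young ones for Cxcl12 (637 and 625 against 141 and 130 CPM), Vcam1, Tnfsf13b, Il6, Cxcl9 and Cxcl16. They lie below for Fn1, Tnfsf13 and Cxcl13. Aged macrophages lie above young ones for Vcam1, Tnfsf13, Cxcl13 and Cxcl16 and below for Il6 and Kitl.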

How the data were processed

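Single-cell RNA was measured in 2 young and 2 aged renal capsule libraries. The deposited matrices hold whole UMI counts per gene and barcode, without normalization. Per the labels they were made with Cell Ranger 6.0.2 on build GRCm38, while the file headers give 6.0.1; every barcode in the files was read. Of 52636 genes, 52403 (99.6%) matched GENCODE M21. The 4 libraries held 9712, 10368, 7067 and 12289 barcodes and 68052444, 70925446, 51180311 and 65118489 UMIs; 92.5% to 97.4% of barcodes passed the filters, with median depths of 4321 to 7133 UMIs.

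The plasma cell rule, gene lists and tests were chosen with earlier results of these data known. Genes named are members of the lists, those with the largest changes among genes past the threshold (at least 50 CPM in the higher class and no overlap between libraries), and the leading V genes. Sums per library and class were tested in edgeR 4.0.16 (R 4.3.3; quasi-likelihood, TMM, filterByExpr), leaving 395 immunoglobulin genes, Jchain and Mzb1 out of totals except in the sums of other barcodes. The fit of plasma cells against B cells held aged plasma cells, aged B cells and young B cells, which share 1 estimate of the spread. DESeq2 1.42.0, other scalings and filters, left-out libraries and Scrublet (scanpy 1.11.5, Python 3.11.15) at 0.8% per 1000 barcodes served as alternatives. In data simulated from the counts, 51.1% of 2-fold and 83.2% of 4-fold changes were called among 8609 genes for plasma cells against B cells, 9.20% and 73.3% among 4760 genes for the V gene pair, and 66.0% and 99.0% among 19184 genes for the ligands. Plasma cells and B cells of a library share that library, so the library pairs these sums; their deviations from the class means correlated at 0.0977, and those of the V gene groups at 0.0159. Young and aged libraries share only a number (0.126 over 2 pairs). The comparison of isotypes gene by gene was not run, because IgA was held by fewer than 20 cells in each aged library. Intervals are exact binomial ones at 95%.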

Additional observations from a re-analysis of the deposited data

How the results depend on the processing

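Removing high doublet scores left a young mean share of 0% and an aged one of 1.45%. The share of Ighv11-2 with Igkv14-126 fell from a mean of 36.6% to 17.0% when 90% of V UMIs had to come from 1 gene, and likewise with at least 5 UMIs. For plasma cells against B cells, 3128 genes passed; DESeq2 called 2029 (1324 higher, 705 lower), which moved the share of higher among called genes from 58.1% to 65.3% and the median of all genes to 0.11. Leaving out a library gave 806 (without aged library 2) to 3407, with 1849 without aged library 1. With aged sums alone the replicate block gave 3873 and no block 3444. For the V gene pair, DESeq2 called 4, no filter 95 and the replicate block 2, against 0. For the ligands, 8570 genes passed, 8502 with a replicate block by number, and 4712 to 9358 without a library (4865 without young library 1 and 4712 without young library 2). In plasma cells with under 10 UMIs of other cell lists Lyz2 went from 3.08 to -0.24 and Gsn from 3.58 to -0.55, since that choice removes barcodes rich in them. Of 59 genes followed in plasma cells against B cells, 43 kept direction and side of the threshold in every alternative, as did 6 of 9 ligands and 1 of 7 genes for the V gene pair; the block ended no call named for the plasma cells and added Ero1lb and Ccr2. Leaving out a library was not possible for the V gene pair. The cause was not tested elsewhere. Mean IgM shares ranged from 91.9% to 95.2%, the values with 1 aged library left out. The 5 young cells limit every statement on young plasma cells, and 2 libraries per age limit every comparison of ages.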

Other observations

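Ighm and Igkc went apart in gated macrophages. Ighm stood at 465 and 450 CPM in young libraries 1 and 2, where 84.8% and 85.5% of the gated macrophages held a UMI, and at 481 and 486 CPM in the aged libraries (85.8% and 85.5%). Igkc stood at 2.61 and 1.56 CPM in the young and at 128 and 258 in the aged libraries. Median depths of these macrophages were 7170, 7516, 9640 and 6743 UMIs. Ighm in gated fibroblasts stood at 7.20 and 6.06 CPM in the young and at 16.0 and 44.3 in the aged libraries. Igkc in gated fibroblasts stood at 2.38 and 1.44 CPM in the young and at 121 and 300 in the aged libraries. The higher Igkc of the aged libraries was thus not particular to macrophages. Plasma cells held 20.9% and 0% of all Ighm UMIs of the young libraries and 82.1% and 86.6% of those of the aged libraries. No explanation was tested.

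The plasma cells of aged library 2 that held a UMI of Mki67 or Top2a, proliferation genes, were 15 of the 69 with Ighv11-2 and Igkv14-126 (21.7%, exact interval 12.7 to 33.3) and 6 of the 64 with Ighv1-82 and Igkv12-44 (9.38%, 3.52 to 19.3), at median depths of 17886 and 17514.5 UMIs. In the rest of aged library 2 they were 7 of 46 without an assigned pair and 7 of 50 with another pair. In aged library 1 they were 3 of 37 of the former pair, 7 of 34 without an assigned pair and 1 of 15 with another pair. The former pair was thus above the cells without a pair in aged library 2 and below them in aged library 1. The intervals of the 2 pairs overlap and count cells, not libraries. Some of the cells with such a UMI also held transcripts of other cell types. A difference between pairs was not tested.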
